A study of Mus musculus with 27 samples.

Results

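The data described here are the libraries taken 12 h and 36 h after a serum pulse in C2C12 myotubes, 3 libraries at each time, chosen by their time labels from a series of 27 libraries at 9 time points. C2C12 is a mouse myoblast line that fuses into multinucleated myotubes when serum is lowered. All cultures in the series shared the same history: growth in 10% FBS, seeding at 50000 cells per well, differentiation in 2% horse serum and then 50% horse serum for 2 h. No genotype, drug or unpulsed culture was compared, so the hours since the pulse are the only label that separates the groups, and age of the myotubes and time since the pulse cannot be told apart. The 2 times lie 24 h apart, so a daily wave of constant height has the same value at both and drops out of their difference. What remains is the change over the first cycle.

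A serum pulse sets the phase of the daily clock in cultured cells, and it also supplies growth factors, lipids and cholesterol that are then withdrawn. Cells read their sterol supply through SREBP factors, which turn on cholesterol and fatty acid synthesis genes when membrane sterol is low. ATF4 turns on amino acid synthesis and tRNA charging genes when amino acids are short or other stress kinases are active, and the interferon response is a program of antiviral genes driven by STAT2 and IRF9. C2C12 cultures also hold mononucleated reserve cells that do not fuse, and these can divide.

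Ribosomal RNA was depleted from total RNA, stranded libraries were made, and the values are read counts per gene. The 6 libraries held 19012294 to 25112320 counted reads (15187400 to 26615773 in the series), and 12687 of 20446 genes had enough reads to be tested. Levels are given as CPM, counts scaled to a common library size, and changes as log2 of 36 h over 12 h with the standard error (SE) from edgeR's quasi-likelihood fit of all 27 libraries. A gene was called when its Benjamini-Hochberg adjusted p over all genes tested was under 0.05. No label says whether the 3 libraries of a time came from separate cultures, so each p-value refers to the spread among the libraries, which may be technical. CPM is not divided by gene length, so it compares 1 gene between samples and not different genes.

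Skeletal muscle genes identified the cells. Myog, the transcription factor of terminal muscle differentiation, stood at 754, 732 and 745 CPM at 12 h, and Acta1, skeletal actin, at 4189 to 4616 CPM. Principal components of the 6 libraries put 51.3% of the variance on an axis that separated 12 h from 36 h, and 27.5% on an axis that set the libraries numbered 3 apart from those numbered 1 and 2. The libraries numbered 3 were high at both times for Egr1 (54.1 and 57.5 CPM, against 19.2 to 27.5 in the other 4) and Mymk (352 and 363, against 158 to 234). Acta1 and Mymk were named here after their values were seen. A fit with the replicate number as a block removes such shared offsets, and its values are given where they change a count by more than 1.5 times. That fit called 30.3% of all tested genes from 12 h to 36 h, against 16.0% without the block. Block counts of a list are to be read beside the former share, and counts of the main fit from 12 h to 36 h beside the latter. Fits of fewer libraries called fewer genes, and their list counts are to be read beside their own totals. These were 1138 of 12311 genes in the 6 libraries alone. With 1 library of 12 h or 36 h left out they were 1559 (of 12773) to 1932 (of 12765).

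Letters of motifs bound by the factors named above, and of the E2F site, were looked up in the promoters of list members, called or not. The windows below show where the letters lie in 8 called genes, at most 3 per list. Promoters came from RefSeq (GRCm38.p6), and the 250 bases before the start were searched on both strands. The ISRE letters GAAANNGAA were found in 17 of the 30 interferon response genes with a promoter (56.7%), against 7.4% of all tested genes. The ATF4 letters TGATGNAA were found in 7 of 23 ATF4 target genes (30.4%, against 2.4%), the sterol letters TCACNCCAC in 1 of 17 cholesterol genes (5.9%, against 1.2%) and the E2F letters TTTCCCGC in 2 of 27 DNA replication genes (7.4%, against 2.0%). Matches of 1 motif can overlap each other, and overlap between different motifs was not examined. Each line is written 5′ to 3′ on the gene's own strand, and capitals mark every match of the list's motif or of its reverse complement. A match describes the letters and shows no binding.
Isg15, ISRE, chr4:156200863-156200921, minus strand: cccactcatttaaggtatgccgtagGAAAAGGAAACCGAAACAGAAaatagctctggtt
Ifit1, ISRE, chr19:34640755-34640813, plus strand: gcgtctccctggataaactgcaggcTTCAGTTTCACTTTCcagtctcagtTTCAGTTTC
Irgm1, ISRE, chr11:48871421-48871475, minus strand: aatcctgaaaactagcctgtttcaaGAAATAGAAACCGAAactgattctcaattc
Asns, ATF4 letters, chr6:7693210-7693257, minus strand: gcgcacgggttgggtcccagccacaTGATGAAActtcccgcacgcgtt
Pck2, ATF4 letters, chr14:55540138-55540195, plus strand: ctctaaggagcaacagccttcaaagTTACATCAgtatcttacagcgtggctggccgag
Vldlr, ATF4 letters, chr19:27216795-27216852, plus strand: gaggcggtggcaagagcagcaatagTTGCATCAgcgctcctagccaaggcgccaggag
Hmgcs1, sterol letters, chr13:119690189-119690247, plus strand: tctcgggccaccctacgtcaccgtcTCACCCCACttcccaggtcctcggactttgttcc
Mcm7, E2F letters, chr5:138172016-138172073, minus strand: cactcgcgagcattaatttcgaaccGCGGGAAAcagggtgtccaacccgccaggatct

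From 12 h to 36 h the interferon response and the ATF4 program fell, cholesterol and fatty acid synthesis, extracellular matrix, smooth muscle contractile and mitosis genes rose, and the core clock genes were not called. Of the 12687 genes tested, 2036 were called (16.0%), 1180 of them higher (9.30%) and 856 lower (6.75%) at 36 h. At least a 2-fold change was fitted for 375 of these (2.96%), 256 higher (2.02%) and 119 lower (0.938%). Over all genes tested the median log2 change was -0.01. The replicates of the 2 times did not overlap for 3587 genes (28.3%). Counts rose to 3839 (30.3%) with the replicate block, 2031 higher (16.0%) and 1808 lower (14.3%), and fell to 1138 in a fit of the 6 libraries alone.

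**Figure D1:**
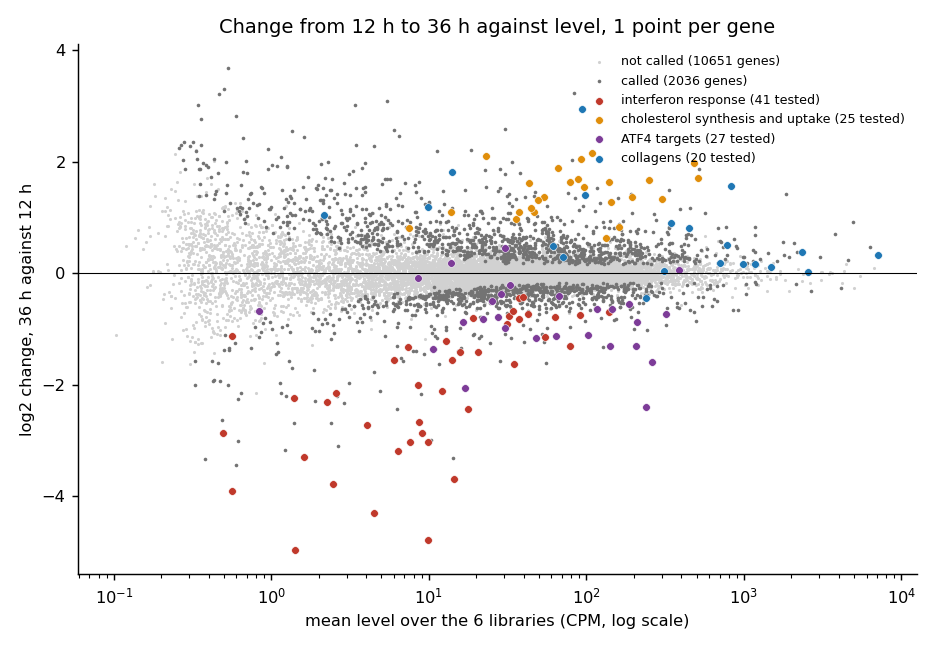
Each point is a gene, placed by its mean level over the 6 libraries (CPM, log axis) and its log2 change from 12 h to 36 h; dark grey points are the 2036 called genes and colours mark the tested members of 4 gene lists. Interferon response genes lie below 0 at all levels and reach -4.96, cholesterol genes lie between 0.64 and 2.16, and the collagens reach from -0.44 to 2.94.

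The antiviral genes made the largest falls. Of 41 interferon response genes tested, 39 fell and 0 rose (16.0% of all tested genes were called in either direction), with a median change of -1.63, and 29 fell at least 2-fold. In a bulk library, fewer cells of a type and less RNA per cell cannot be told apart. Ifi44 (chromosome 3, 151730922 to 151749960, mm10), an interferon-induced gene, stood at 12.9, 30.1 and 13.8 CPM in replicates 1 to 3 of 12 h and at 0.852, 0.688 and 0.525 CPM at 36 h. That is a change of -4.78 ± 0.37 (SE, adjusted p = 2.3e-09), 27.5-fold lower. Every 12 h library lay far above every 36 h library, and replicate 2 of 12 h was the highest.

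Regulators of the response fell with its targets. Irf7, the factor that amplifies interferon production, went from 10.5, 16.3 and 13.7 CPM to 1.60, 1.38 and 1.97 CPM (-3.02 ± 0.26, adjusted p = 1.3e-08). Irf9, the DNA-binding partner of STAT2, went from 49.2, 63.0 and 46.1 CPM to 18.1, 16.1 and 17.0 CPM (-1.63 ± 0.14). Among the effectors, Isg15, a ubiquitin-like modifier, changed by -3.02 ± 0.29, Usp18, which removes it, by -4.31 ± 0.51, and Ifit1, which binds viral RNA, by -3.69 ± 0.37. Oas2, an RNA sensor, had the lowest fitted change at -4.96 ± 0.65, but it rested on few reads: 1.83, 4.04 and 2.35 CPM at 12 h and 0.0501, 0.212 and 0 CPM at 36 h. Ifit3 (-3.18) and Ifit3b (-3.78) are near-identical copies, and how the authors' counting split reads between them was not given in the sources used here.

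The same fall was present in each numbered pair of libraries. The median change over the 41 genes was -1.34 between the libraries numbered 1, -1.99 between those numbered 2 and -1.70 between those numbered 3. Replicate 2 of 12 h was the highest of the 6 libraries for each of the 9 interferon genes named above. Without the 9 libraries numbered 2, 39 of the 41 genes were again called lower. The summed level of the list was 1111 to 1567 CPM at 12 h and 559.8 to 630.1 CPM at 36 h. Only Rsad2 (-1.12, adjusted p = 0.082) and Stat2 (-0.42, adjusted p = 0.076) were not called, and both were named here after their values were seen.

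Genes of MHC class I presentation followed in part. Of 13 tested, 3 fell and 0 rose, with a median of -0.33. Tap1, which carries peptides into the endoplasmic reticulum, went from 4.21, 5.62 and 5.05 CPM to 1.10, 1.32 and 1.35 CPM (-1.97 ± 0.17). H2-K1, a class I heavy chain, went from 82.4, 107 and 97.9 CPM to 60.0, 59.9 and 59.4 CPM (-0.68 ± 0.13). H2-Q4, a similar heavy chain whose reads may be shared with other class I genes, changed by -0.52 ± 0.16 (adjusted p = 0.023), and it was not called without replicate 2 of 12 h (adjusted p = 0.17), replicate 1 of 36 h (0.074) or replicate 3 of 36 h (0.099). With the replicate block 6 of the 13 were lower. Among 21 chemokine and inflammation genes 3 rose and 2 fell, and the block gave 6 and 3. Ccl5, a chemokine induced by interferon and NF-kB, fell from 3.31, 2.96 and 3.22 CPM to 0.451, 0.688 and 0.787 CPM (-2.28 ± 0.31), and Cxcl5 fell as well (-0.88, adjusted p = 0.012). The risers were Cxcl14 (2.30 ± 0.16), Il33 (1.04 ± 0.13) and Ptgs2, prostaglandin synthase (0.57, adjusted p = 5.6e-05). Cxcl5 and Ptgs2 were named after their values were seen.

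ATF4 targets were the other group of large falls. Of 27 tested, 17 fell and 1 rose, with a median of -0.79. Aldh1l2, a mitochondrial folate enzyme (chromosome 10, 83487450 to 83534140), went from 380, 389 and 442 CPM to 70.5, 77.8 and 81.8 CPM, 5.26-fold lower (-2.40 ± 0.12, adjusted p = 6.7e-13). Psph, the last enzyme of serine synthesis, went from 62.0, 72.6 and 63.1 CPM to 30.8, 30.0 and 27.8 CPM (-1.16 ± 0.08). Pck2, mitochondrial PEP carboxykinase, went from 135, 141 and 142 CPM to 60.1, 69.1 and 65.8 CPM (-1.10 ± 0.08). The hormone gene Fgf21 changed by -2.06 ± 0.24, from 26.0 to 29.6 CPM at 12 h to 5.11 to 7.67 CPM at 36 h. No library of 12 h overlapped with 36 h for any of these 4 genes, which was so for 28.3% of all tested genes. The single riser was Ddit4, an inhibitor of mTORC1 (0.45 ± 0.11, adjusted p = 0.0048), which was not called in the 6 libraries alone (adjusted p = 0.071). Atf4 mRNA itself was at 373 to 383 CPM at 12 h and 376 to 417 CPM at 36 h (0.06 ± 0.06, adjusted p = 0.63). Ddit4 and Atf4 were named after their values were seen.

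The cytosolic tRNA synthetases, which load amino acids onto tRNA, moved the same way by less. Of 21 tested (the list includes the tRNA exporter Xpot), 16 fell and 0 rose, with a median of -0.53 and no member past 2-fold. Lars, for leucine, went from 403, 451 and 411 CPM to 231, 227 and 208 CPM (-0.92 ± 0.06, adjusted p = 2e-10). Nars, for asparagine, changed by -0.85 ± 0.08 and Xpot by -0.57 ± 0.06. The antioxidant NRF2 and glutathione list had 9 of 13 lower and 0 higher, with a median of -0.33. Nqo1, a quinone reductase, led it with 33.2, 37.8 and 31.8 CPM at 12 h and 15.7, 15.7 and 11.8 CPM at 36 h (-1.25 ± 0.18). Srxn1, which repairs peroxiredoxins, changed by -0.62 ± 0.09 and the transferase Gstm1 by -0.70 ± 0.11. Of 21 unfolded protein response genes 3 rose (Calr, Xbp1 and Edem1, at most by 0.25) and 0 fell. That is 14.3% called, near the 16.0% of all tested genes. With the replicate block 6 rose and 2 fell, while in the 6 libraries alone 0 were called. A single gene of the list was called without replicate 2 of 12 h, replicate 1 of 36 h or replicate 2 of 36 h.

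Sterol synthesis genes rose together. Of 25 cholesterol synthesis and uptake genes tested, 24 rose and 0 fell, with a median of 1.37, and 21 rose at least 2-fold. Lss, which closes the sterol rings (chromosome 10, 76531588 to 76557138), went from 36.3, 36.1 and 35.5 CPM to 148, 153 and 148 CPM, 4.16-fold higher (2.06 ± 0.09, adjusted p = 1e-13). Nsdhl, which removes a methyl group from the sterol, went from 43.4, 39.2 and 42.6 CPM to 133, 135 and 138 CPM (1.69 ± 0.06). Fdft1, squalene synthase, went from 49.6, 48.5 and 49.0 CPM to 144, 136 and 148 CPM (1.54 ± 0.06). The spread within a time was small beside the difference for all 3. Summed over the list, the level was 1609 to 1681 CPM at 12 h and 4707 to 4772 CPM at 36 h.

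The rise included feedback genes. Insig1, which holds SREBP in the endoplasmic reticulum, changed by 2.16 ± 0.11, the highest of the list, and was named after its value was seen, as is Srebf2. The only member not called was Srebf2, the sterol-sensing factor's own gene (0.64 ± 0.36, adjusted p = 0.27). It differed most between replicate numbers, with 98.6, 64.6 and 147 CPM at 12 h and 145, 109 and 229 CPM at 36 h, and the replicate block called it (0.65, adjusted p = 1.0e-04). Of 6 genes in the list for sterol efflux and other answers to high sterol, 3 rose and 0 fell: Mylip (0.31), Abca1 (0.54) and Abcg1 (0.59). None of these 3 was called in the 6 libraries alone, and 1 was called without replicate 1 of 12 h, replicate 2 of 12 h or replicate 3 of 36 h.

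Fatty acid synthesis moved with cholesterol. Of 16 genes tested 11 rose and 0 fell, with a median of 0.75. Elovl6, which lengthens saturated fatty acids, went from 24.8 to 25.9 CPM at 12 h to 68.8, 72.5 and 66.1 CPM (1.46 ± 0.08, adjusted p = 3.6e-12). Fads2, a desaturase, changed by 1.27 ± 0.08 and Acly, which makes cytosolic acetyl-CoA, by 0.82 ± 0.05. Fatty acid oxidation genes went the other way in part, with 5 of 25 lower, 1 higher and a median of -0.10. Angptl4, an inhibitor of lipoprotein lipase, went from 72.1 to 78.1 CPM down to 36.1 to 40.3 CPM (-0.99 ± 0.09), and Cpt1a, needed for entry of fatty acids into mitochondria, changed by -0.54 ± 0.11. The other fallers were Plin2 (-0.40), Hadh (-0.34) and Acadl (-0.30), named after their values were seen. The riser was Cd36, a fatty acid transporter (0.55 ± 0.11). With the replicate block 5 genes of this list rose and 7 fell.

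**Figure D2:**
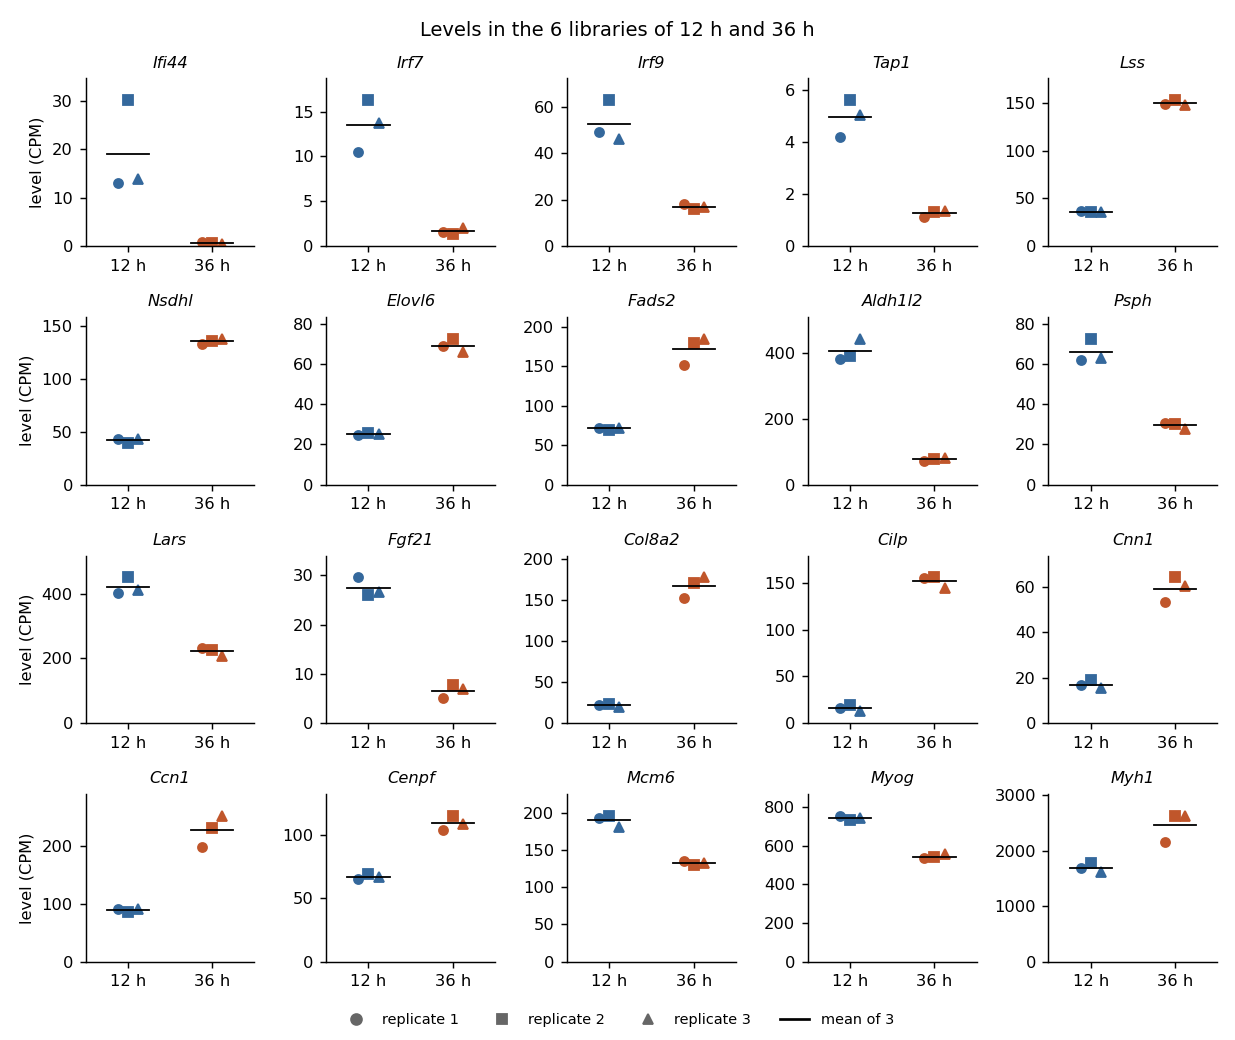
Levels (CPM, linear axes from 0) of 20 genes in the 3 libraries of 12 h (blue) and of 36 h (orange); symbols give the replicate number and bars the mean of 3. The groups do not overlap in any of the 20 panels, but the genes were taken from the named genes, which were picked largely by this same comparison. Over all tested genes the groups did not overlap for 28.3%. Ifi44 shows the spread among 12 h libraries, with replicate 2 at 30.1 CPM and the others at 12.9 and 13.8.

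Extracellular matrix genes rose across several classes. Of 20 collagens tested 12 rose and 0 fell (median 0.44), of 8 small leucine-rich proteoglycans 6 rose and 0 fell (median 0.91), and of 23 matrix glycoproteins 12 rose and 1 fell (median 0.30). Col8a2, a short-chain collagen (chromosome 4, 126286793 to 126314330), went from 22.1, 23.8 and 19.3 CPM to 153, 171 and 178 CPM, 7.69-fold higher (2.94 ± 0.09, adjusted p = 1.4e-16). Cilp, a cartilage matrix protein that binds TGF beta (chromosome 9, 65265180 to 65280605), went from 16.1, 19.1 and 13.0 CPM to 155, 156 and 145 CPM, 9.47-fold higher (3.24 ± 0.12). Both were far outside the spread of their replicates.

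The collagen changes were uneven. Col11a1, a fibrillar collagen, changed by 1.82 ± 0.12 and Col8a1 by 0.81 ± 0.06, while Col3a1, a fibrillar collagen too, went from 6235 to 6501 CPM up to 7724 to 8208 CPM (0.32 ± 0.06, adjusted p = 0.00038). Col1a1 was not called (0.51, adjusted p = 0.21) and was named after its value was seen. Among the proteoglycans, Fmod, which binds collagen fibrils, rose from 0.624, 0.641 and 0.958 CPM to 4.61, 5.56 and 7.91 CPM (3.02 ± 0.26), and Ogn rose from 160 to 206 CPM to 289 to 420 CPM (0.96 ± 0.12). Thbs2 (0.82 ± 0.06) and Nid2, a basement membrane linker (1.08 ± 0.08), rose among the glycoproteins, and Fbln2 was the one that fell (-0.59 ± 0.11, named after its value was seen). The glycoprotein gene Sparc rose by 0.25 ± 0.06 (adjusted p = 0.007), but it was not called without replicate 3 of 36 h (adjusted p = 0.062).

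Enzymes that build and cut the matrix moved with it. Of 18 collagen crosslinking and folding genes 10 rose and 0 fell, and 5 were called without replicate 2 of 12 h or replicate 3 of 36 h. Tgm2, transglutaminase, went from 42.1, 44.3 and 43.3 CPM to 86.8, 83.5 and 90.9 CPM (1.01 ± 0.07), and P4ha1, prolyl hydroxylase, changed by 0.74 ± 0.08. Of 19 matrix proteases and inhibitors 11 rose, among them the aggrecanase genes Adamts1 (0.63 ± 0.05) and Adamts4 (0.52 ± 0.05) and the inhibitor Timp3 (1.17 ± 0.11). The 3 that fell were Mmp9 (-2.15), the inhibitor Timp1 (-0.65) and Mmp11 (-0.62), named after their values were seen.

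Smooth muscle contractile genes rose beside the matrix. Of 8 tested 7 rose and 0 fell, with a median of 0.77. Cnn1, calponin (chromosome 9, 22099216 to 22109630), went from 16.6, 18.8 and 15.4 CPM to 53.2, 64.2 and 60.5 CPM (1.81 ± 0.13, adjusted p = 3.5e-10). Lmod1, an actin nucleator, changed by 1.33 ± 0.11 and Tagln by 0.84 ± 0.08. Acta2, smooth muscle actin, went from 2564 to 3029 CPM up to 4160 to 5350 CPM (0.71 ± 0.11), and Actb, cytoplasmic actin, changed by 0.47 ± 0.06. The actin genes are similar in sequence, so reads may be shared among them. Of 15 YAP and TEAD targets, genes that answer to tension on the cytoskeleton, 4 rose and 0 fell, against 9 and 3 with the replicate block. Ccn1, a matrix signal, went from 91.7, 85.7 and 90.9 CPM to 199, 233 and 253 CPM (1.35 ± 0.09). Ccn2 changed by 1.09 ± 0.10, Crim1 by 0.46 ± 0.07 and Dlc1 by 0.77 (adjusted p = 0.003, named after its value was seen). Of 24 early response factors 6 rose and 0 fell, among them Egr2 (1.08 ± 0.15) and Srf (0.65 ± 0.14), and 3 were called without replicate 3 of 36 h. The block called 9 higher and 1 lower.

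Secreted signals changed on both sides of the BMP and TGF beta system. Of 27 genes tested 12 rose and 3 fell, with a median of 0.33. Among the fallers, Grem1, a BMP antagonist, went from 191, 173 and 181 CPM to 71.8, 69.7 and 77.4 CPM (-1.32 ± 0.08, adjusted p = 1.5e-11), and the latent TGF beta binding protein Ltbp2 (-1.02) was also lower, named after its value was seen. Id3, a BMP target, rose from 12.4, 13.8 and 13.9 CPM to 30.5, 26.1 and 30.6 CPM (1.12 ± 0.10). In the Wnt list 6 of 19 rose and 0 fell, with Nkd2, an inhibitor inside the cell, going from 15.0, 15.6 and 13.5 CPM to 42.8, 41.3 and 42.5 CPM (1.52 ± 0.08). Sfrp2, a secreted Wnt binder, changed by 1.52 ± 0.24. In the IGF list 3 of 13 rose (6 higher and 1 lower with the block): Igf1 (1.495 ± 0.23, from 7.59 to 9.89 CPM up to 19.9 to 28.2 CPM), Igfbp4 (1.22 ± 0.15) and Igfbp3 (1.41 ± 0.24). Of 14 myokine genes 5 rose and 2 fell. Ptn changed by 1.43 ± 0.13, and Hgf, which activates muscle stem cells, went from 58.7, 55.5 and 54.8 CPM to 27, 25.3 and 19.8 CPM (-1.23 ± 0.11). Fgf21, given above, is the other faller. In the Notch list 4 of 12 rose, led by Lfng, which modifies the receptor (0.47 ± 0.11), but leaving out any 1 of the 6 libraries cut the count to 1 (without replicate 1 or 3 of 36 h) or 2 (without any of the other 4). Of 17 genes of ERK feedback and EGF-family ligands 3 rose and 0 fell (17.6% called, near the 16.0% of all tested genes), with Hbegf, a ligand, at 0.56 ± 0.10. The block called 7 of them, where it called 30.3% of all tested genes.

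Cell division genes split by phase. Of 29 mitosis genes 23 rose and 0 fell, with a median of 0.52 and no member past 2-fold. Cenpf, a kinetochore protein, went from 65.6, 69.1 and 67.0 CPM to 104, 115 and 108 CPM (0.70 ± 0.08, adjusted p = 5.7e-07). Kif20a, a motor of cytokinesis, changed by 0.72 ± 0.08 and Hmmr, a spindle protein, by 0.78 ± 0.10. Of 33 DNA replication genes 14 fell and 0 rose, with a median of -0.29. Mcm6, part of the replicative helicase, went from 193, 195 and 180 CPM to 136, 129 and 132 CPM (-0.52 ± 0.06, adjusted p = 5.8e-07), with Mcm5 at -0.52 ± 0.08 and Mcm10 at -0.56 ± 0.10. The count for replication was less steady than that for mitosis: 6 were called in the 6 libraries alone, 8 without replicate 1 of 36 h, 9 without replicate 2 of 12 h and 22 with the replicate block.

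The timing of these genes on the other libraries bears on that split. The median of the mitosis list was 0.77 above 12 h already at 18 h, 0.27 at 30 h and 0.51 at 36 h, so it was lowest at 12 h and highest at 18 h among the 9 time points. The median of the replication list was 0.45 below 12 h at 18 h and 0.21 to 0.49 below it at every later time. Mki67, a marker of dividing cells, went from 161, 164 and 172 CPM to 215, 232 and 227 CPM (0.44 ± 0.11, adjusted p = 0.0069). Among 11 CDK inhibitor, pocket protein and D cyclin genes, Cdkn2d rose (0.58 ± 0.14) and Ccnd1 (-0.24 ± 0.06) and Rbl2 (-0.18 ± 0.06) fell. The block gave 2 higher and 5 lower. Ccnd1 (adjusted p = 0.13) and Rbl2 (0.28) were not called in the 6 libraries alone. Rbl2 also lost its call without replicate 1 or 2 of 12 h (adjusted p = 0.075 and 0.15) or replicate 1 or 3 of 36 h (0.068 and 0.17).

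Glycolysis and glycogen genes rose by small amounts. Of 24 tested 12 rose and 0 fell, with a median of 0.30, and 6 were called in the 6 libraries alone, without replicate 1 of 12 h or without replicate 3 of 36 h, and 7 without replicate 2 of 36 h. Pfkl, a phosphofructokinase, changed by 0.82 ± 0.12, Pgam1 by 0.59 ± 0.09 and Ldha, which makes lactate, by 0.43 ± 0.08, from 456 to 530 CPM up to 642 to 685 CPM. Pdk1, which turns off pyruvate dehydrogenase, went from 34.3, 37.3 and 37.2 CPM to 69.1, 68.6 and 69.1 CPM (0.93 ± 0.08, adjusted p = 6.2e-09). It belongs to the hypoxia target list, where 4 of 13 rose and 1, Ero1l, fell (-0.59 ± 0.09). Of 60 respiratory chain subunits 1 fell, Uqcrq (-0.44 ± 0.15, adjusted p = 0.046), and 0 were called when any 1 of the 6 libraries was left out. The block called 3, all lower.

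Translation genes leaned lower. Of 19 ribosome biogenesis genes 6 fell and 0 rose, 3 fell without replicate 1 of 36 h, and 13 fell with the replicate block. Npm1, nucleophosmin, changed by -0.64 ± 0.13. Of 74 cytosolic ribosomal protein genes 1 was called, Rpl8 (-0.36 ± 0.12, adjusted p = 0.043), while the list's median was -0.25. The block called 19, all lower, where it called 30.3% of all tested genes in either direction and 14.3% lower. Rpl8 kept its call only where replicate 3 of 12 h was the library left out, and 4 genes of the list were then called. Eef2, an elongation factor, went from 4417 to 4643 CPM down to 3484 to 3952 CPM (-0.27 ± 0.06, adjusted p = 0.003), but was not called in the 6 libraries alone (adjusted p = 0.082). Metallothionein Mt2, which binds zinc, went from 16.1, 16.6 and 19.7 CPM to 4.26, 5.45 and 7.21 CPM (-1.62 ± 0.23). It belongs to the glucocorticoid target list, where 2 of 10 rose and 3 fell, and 3 of the 10 were called without replicate 1 of 12 h, replicate 1 of 36 h or replicate 3 of 36 h. Of 18 heat shock and cold-inducible genes 4 fell and 0 rose, with Hspd1, the mitochondrial chaperonin, at -0.60 ± 0.07.

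Genes of the contractile apparatus were called at a share near that of all tested genes. Of 37 sarcomere genes 5 rose and 0 fell (13.5% called, beside 16.0% of all tested genes). Their median was 0.02, and 3 rose without replicate 3 of 36 h. The block called 8 higher and 2 lower, where it called 30.3% of all tested genes. Myh1, an adult fast myosin heavy chain, went from 1684, 1781 and 1624 CPM to 2163, 2626 and 2626 CPM (0.54 ± 0.07, adjusted p = 3.8e-06). Mybpc1, a slow myosin binding protein, changed by 0.71 ± 0.13 and Tpm1 by 0.39 ± 0.09. Myh2 (0.51, adjusted p = 0.0074), named after its value was seen, and the embryonic Myh3 (0.30 ± 0.09, adjusted p = 0.031) make up the 5. Myh3 was not called without any of 4 libraries: replicate 1 or 2 of 12 h (adjusted p = 0.12 and 0.099) or replicate 2 or 3 of 36 h (0.053 and 0.17). The myosin genes are similar in sequence, so reads may be shared among them.

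Of 11 myogenic factors 1 rose and 1 fell, a share of 18.2% called beside 16.0% of all tested genes. Myog went from 754, 732 and 745 CPM to 536, 541 and 555 CPM (-0.45 ± 0.07, adjusted p = 0.00011), while Mef2c, its partner in late differentiation, went from 344, 340 and 339 CPM to 510, 506 and 461 CPM (0.53 ± 0.07, adjusted p = 4e-06). The other 9 were not called. Mymx, the small membrane protein of myoblast fusion, went from 77.7, 72.0 and 83.2 CPM to 55.9, 51.1 and 58.5 CPM (-0.49 ± 0.09), and Adam12, a protease of fusing cells, changed by 0.88 ± 0.16. In that list of 14 fusion and adhesion genes 2 rose and 2 fell, 2 were called without replicate 1 of 12 h or replicate 3 of 36 h, and the block called 5 higher and 4 lower. Of 11 acetylcholine receptor and postsynaptic genes 1 rose, Chrne, the adult receptor subunit, from 1.56, 0.789 and 0.871 CPM to 3.10, 3.39 and 3.02 CPM (1.53 ± 0.21). The block called 5 higher and 1 lower, and 3 genes of that list were called without replicate 1 of 12 h and 2 without replicate 3 of 12 h. In the triad list, Jph2 (0.32 ± 0.06) and Casq1 (0.50 ± 0.11) rose and Cacng1 (-0.44 ± 0.09) and Atp2a2 (-0.16, adjusted p = 0.034, named after its value was seen) fell. The block called 5 higher and 2 lower in the triad list of 14. Casq1 was not called without the libraries numbered 2 (adjusted p = 0.059).

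**Figure D3:**
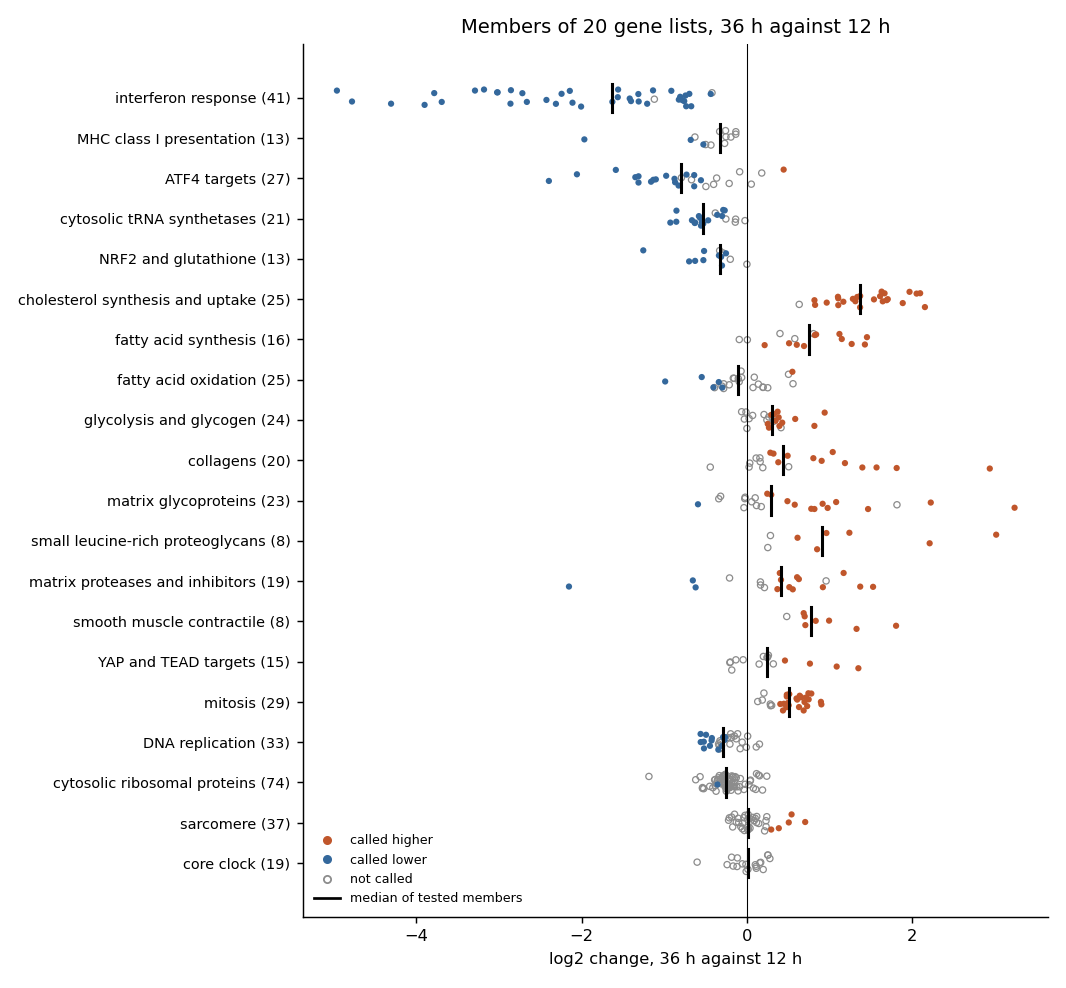
Each point is a tested gene of the list named on the left, with the number tested in brackets, placed by its log2 change from 12 h to 36 h; orange and blue points were called higher and lower, open points were not called, and black bars are medians. Medians reach from -1.63 for the interferon response to 1.37 for cholesterol, and those of the sarcomere (0.02) and the core clock (0.01) lie near 0.

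The core clock genes gave 0 calls in 19 genes, with a median of 0.01. The 24 h distance removes a daily wave only where its height is constant, and whether theirs was constant was not tested. Fitted changes ran from -0.60 for Hlf to 0.28 for Npas2, both under 2 CPM, with SE of 0.56 and 0.48. Arntl, the positive arm, stood at 44.9, 44.0 and 37.4 CPM at 12 h and at 46.7, 51.1 and 43.2 CPM at 36 h (0.16 ± 0.09, adjusted p = 0.31), and its groups overlap. Dbp, an output gene, was the only clock gene whose groups did not overlap, at 9.01, 8.28 and 9.36 CPM and then 7.06, 7.73 and 7.83 CPM (-0.24 ± 0.10, adjusted p = 0.11). Over all tested genes the groups did not overlap for 28.3%. Of the repressors, Per2 changed by -0.12 ± 0.16, Cry1 by -0.01 ± 0.08 and Nr1d1 by 0.17 ± 0.41. Nr1d1 differed between replicate numbers at both times, with 8.58, 4.78 and 12.5 CPM and then 8.36, 6.83 and 13.9 CPM. With the replicate block Arntl (0.16, adjusted p = 0.047) and Bhlhe40 (0.26, adjusted p = 0.037) were called. A change of the size of these SE was not detectable here, and the missing calls do not show that the levels were equal.

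Many markers of other cell types were near 0, some were abundant, and single members of several lists were called. Ptprc, Adgre1, Pecam1, Adipoq and Plin1 averaged at most 0.0248 CPM over the 6 libraries, and Cd3e, Tie1, Sox10 and Epcam had no read. The 8 immune markers together summed to 1.73 to 2.46 CPM at 12 h and 2.27 to 2.55 CPM at 36 h, and of the 3 that could be tested 0 were called. Others were well above 0: the osteoblast list's Spp1, a secreted matrix protein, averaged 2340 CPM, the neural list's Tubb3, a tubulin, 157 CPM, the tenocyte list's Scx 155 CPM and the chondrocyte list's Sox9 23.9 CPM, and none of these 4 was called. Dmp1 of the osteoblast list rose from at most 0.546 CPM to at least 0.952 CPM (1.27 ± 0.28), and Col10a1 of the chondrocyte list from 2.27 to 2.46 CPM up to 3.61 to 4.29 CPM (0.71 ± 0.16). Egfl7 of the endothelial list fell from 2.74 to 3.04 CPM down to 1.35 to 1.80 CPM (-0.89 ± 0.22). Krt14, a keratin of the epithelial list, fell by 0.32 on the log2 scale (adjusted p = 0.047), but was not called without replicate 2 or 3 of 12 h (adjusted p = 0.069 and 0.14) or replicate 1 or 2 of 36 h (0.16 and 0.061). Of 4 fibroblast markers tested, Pdgfra (0.68 ± 0.08) and Pdgfrb (0.53 ± 0.12) rose, while Ly6a (0.05) and Pi16 (0.14) were not called Dpp4 averaged 0.0161 CPM and Tcf21 had no read. Pdgfra went from 16.1 to 17.0 CPM up to 24.9 to 28.1 CPM, and Pdgfrb from at most 294 CPM up to 344 to 444 CPM. Summed, the fibroblast list was at 498 to 525 CPM and then 622 to 691 CPM. These 2 receptors moved with the matrix and smooth muscle genes, and their part in that result was not tested. Of 6 markers of myoblasts and reserve cells, Id3 and Mki67 rose, Cd34 fell (62.6, 57.4 and 67.8 CPM to 39.2, 36.1 and 29.9 CPM, -0.84 ± 0.09), and Pax7, Myf5 and Myod1 were not called. Their part in the mitosis result was likewise not tested. The 8 myotube markers summed to 11140 to 11230 CPM at 12 h and 10560 to 11960 CPM at 36 h.

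The 12 largest rises were taken among called genes of at least 1 CPM on average. Crispld2, a secreted protein, went from 1.13, 1.08 and 1.22 CPM to 9.37, 9.42 and 10.5 CPM (3.08 ± 0.16). Angpt4, an angiopoietin, went from 7.87, 9.41 and 8.67 CPM to 52.4, 53.0 and 50.7 CPM (2.59 ± 0.07, adjusted p = 7.6e-17). Besides these, Cilp, Fmod, Col8a2 and Cxcl14, the rises included Insc (2.56), Dock10 (2.55), the chemokine scavenger Ackr4 (2.47), Fam84b (2.44) and the proteoglycan Prelp (2.21). Of the 12 largest falls, 9 were interferon response genes. The others were Car6, a secreted carbonic anhydrase (27.6, 25.6 and 24.6 CPM to 2.45, 2.91 and 2.45 CPM, -3.32 ± 0.20), P2rx3, an ATP-gated channel (-3.16 ± 0.32), and Abcb1a, a drug efflux pump (-3.09 ± 0.37).

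The same 24 h distance a day later gave a much smaller change. Between 36 h and 60 h 109 genes were called (0.859%), 63 higher (0.497%) and 46 lower (0.363%), and 14 of them at least 2-fold (0.110%). Without any 1 of the libraries of 36 h or 60 h it was 47 to 69, lowest without replicate 1 of 60 h. The test of the difference between the changes of the first and the second cycle called 858 genes (6.76%), and 543 without replicate 3 of 36 h. The 36 h libraries enter both changes, with opposite sign. Measured from 12 h, the median of the 1180 genes higher at 36 h was 0.58 at 36 h and 0.50 at 60 h, and that of the 856 lower genes -0.43 and -0.36. The 12 h and 36 h libraries also served to choose these genes, so the medians at 36 h and 60 h do not compare on equal terms.

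By list, the difference was called for 24 of 25 cholesterol genes, whose median change was 1.37 in the first cycle and -0.08 in the second, and for 28 of 41 interferon genes (-1.63 and 0.00). It was called for 7 of 8 smooth muscle genes (0.77 and -0.14), 12 of 21 tRNA synthetases (-0.53 and 0.13), 15 of 27 ATF4 targets (-0.79 and 0.18), 14 of 29 mitosis genes (0.52 and -0.05) and 8 of 20 collagens (0.44 and 0.08). Over all tested genes the difference was called for 6.76%. Of 33 DNA replication genes it was called for 2 (-0.29 and -0.16), a share near that one. Aldh1l2 fell in the first cycle and rose in the second (0.81 ± 0.11, adjusted p = 0.00024), to 135 CPM on average at 60 h, below its 12 h mean of 404 CPM. Myog fell again, with a second-cycle change of -0.37 ± 0.07, to a mean of 420.4 CPM at 60 h, and the difference between its cycles was not called (adjusted p = 0.88). Of 19 core clock genes Dbp alone was called for the difference (adjusted p = 0.047), also a share near that of all tested genes.

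Pairs of time points that share no library with 12 h and 36 h gave further counts. Between 18 h and 42 h 854 genes were called (6.73%), between 24 h and 48 h 499 (3.93%) and between 30 h and 54 h 220 (1.73%). Of the 2036 genes called from 12 h to 36 h, 585 were called in the same direction from 18 h to 42 h, which is 28.7% of the former and 68.5% of the latter, and 17 in the opposite one. From 24 h to 48 h the shared genes were 207 (10.2% and 41.5%), with 83 opposite, and from 30 h to 54 h 68 (3.3% and 30.9%), with 69 opposite.

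Most called genes first passed the midpoint of their change before 36 h. At 18, 24 and 30 h a daily wave does not cancel, so it may enter these values. A gene past the midpoint may also have moved back later. The 12 h and 36 h means that set the midpoint also served to choose the genes. Of the 1180 risers 450 were past the midpoint between their 12 h and 36 h means at 18 h (38.1%), a further 449 at 24 h (38.1%) and 216 at 30 h (18.3%). Of the 856 fallers 460 were past it at 18 h (53.7%), 246 more at 24 h (28.7%) and 113 at 30 h (13.2%). Groups differed in this respect. The interferon median was 0.81 below 12 h at 18 h and 1.21 below it at 24 h, and the ATF4 median reached its lowest level at 24 h, 0.97 below 12 h, before 0.76 below at 36 h. The cholesterol median was only 0.38 above 12 h at 18 h, then 1.09 above at 24 h. The smooth muscle median exceeded its 12 h level by 0.18 at 18 h and 0.20 at 24 h, and only later by 0.47 (30 h) and 0.77 (36 h). Cnn1 showed this course with means of 16.9, 20.6, 25.6, 44.2 and 59.3 CPM at 12, 18, 24, 30 and 36 h.

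**Figure D4:**
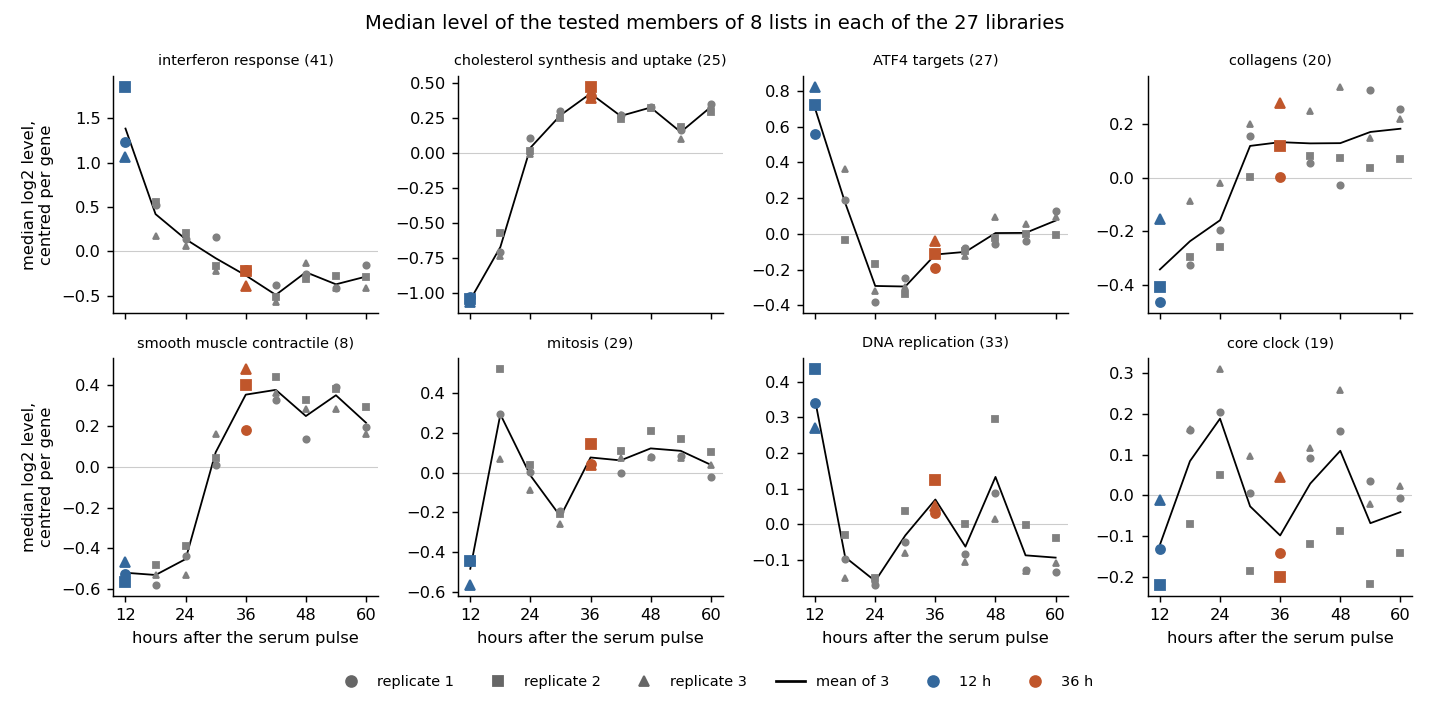
Each symbol is 1 of the 27 libraries, placed by hours after the pulse and by the median log2 level of the tested members of a list, after the mean of each gene over all libraries was subtracted; symbols give the replicate number, blue and orange mark 12 h and 36 h, and lines join the means of 3. The libraries of 12 h lie apart from those of 36 h in all panels except the core clock, where the 6 overlap.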

How the data were processed

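The deposited table gives raw counts for 20446 genes (whole numbers, with no normalization) in 27 libraries. The submitters' processing notes list Trim Galore 0.4.0, cutadapt 1.9.1 and featureCounts, with mm10 as the build. The sources used here do not give the aligner, annotation or counting options. Names were taken from GENCODE M21 for 20327 genes.

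edgeR's filterByExpr (minimum count 10) kept 12687 genes. TMM factors were 0.979 to 1.03 and the biological coefficient of variation was 11.8%. Time point was a factor in 1 quasi-likelihood fit of all 27 libraries, in edgeR 4.0.16 under R 4.3.3. Contrasts were 36 h minus 12 h, 60 h minus 36 h and their difference, each adjusted by Benjamini-Hochberg across the tested genes, with 0.05 as threshold. The pairs 18 h and 42 h, 24 h and 48 h, and 30 h and 54 h were fitted in addition. Comparison, gene lists, motifs and alternatives were chosen with earlier results of these data known.

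Between 12 h and 36 h libraries of the same number, deviations from the time means correlated with r = 0.113, 0.494 and 0.575 across genes (numbers 1 to 3). Libraries of unlike number gave -0.520 to 0.133, so numbers 2 and 3 stood out and number 1 did not. With 60 h, libraries numbered 2 and 3 also correlated (0.331 and 0.324 for 12 h, 0.306 and 0.295 for 36 h), but those numbered 1 did not (0.0165 and -0.0558). The main fit used no pairing at any time. The replicate block covered all 27 libraries, those of 60 h included.

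Named by rule were the 12 largest rises and 12 largest falls (called, at least 1 CPM on average, replicates not overlapping), up to 3 members per list with the smallest p, all core clock genes, the 6 with the smallest p for the difference between cycles and the 6 called genes of highest mean CPM. Predicted genes and pseudogenes were not named. Results for several other genes are not reported here. Alternatives were DESeq2 1.42.0, limma-voom (limma 3.58.1), other scaling and filters, the replicate block, a stricter threshold, a test against 1.5-fold and fits without libraries.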

Additional observations from a re-analysis of the deposited data

Results flagged for a closer look

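The first-cycle change and the second-cycle change were tested against each other in 1 contrast, and 858 genes differed between them. The 6 genes of at least 1 CPM with the smallest p for this difference rose from 12 h to 36 h. Angpt4 rose by 2.59 and then fell by 0.77 on the log2 scale, a difference of 3.36 ± 0.12 (SE, adjusted p = 4.2e-15). For the matrix protein gene Cilp the difference was 3.83 ± 0.19, with a second-cycle change of -0.59. Col8a2 rose in both cycles, by 2.94 and 0.38, and differed by 2.57 ± 0.14. Srpx2, a secreted sushi-domain protein, went from 63.5, 58.6 and 56.4 CPM at 12 h to 176, 175 and 166 CPM at 36 h and differed by 1.67 ± 0.09. The sterol genes Nsdhl and Fdft1 differed by 1.71 ± 0.10 and 1.67 ± 0.10, with second-cycle changes of -0.01 and -0.13. Which change of the cultures underlies the difference was not tested.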

How the results depend on the processing

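The 2036 genes called from 12 h to 36 h became 3839 with the replicate block, 1138 in the 6 libraries alone and 1279 at adjusted p under 0.01. The test against 1.5-fold, which asks for a change beyond that size, called 304 genes from 12 h to 36 h. It called 192 for the difference between the cycles and 2 from 36 h to 60 h. The other settings gave 1518 to 2183 genes from 12 h to 36 h. Leaving out 1 library gave 1559 to 1932, and for the 375 genes past 2-fold 363 to 379. The 858 genes of the difference became 1993 with the replicate block, 490 at adjusted p under 0.01 and 543 to 818 with 1 library left out, lowest without replicate 3 of 36 h. The 109 genes of 60 h against 36 h became 183 with DESeq2, 395 with the replicate block, 33 without the 9 libraries numbered 2, 17 in the 6 libraries of 36 h and 60 h alone, 46 at adjusted p under 0.01 and 47 to 69 with 1 library left out, lowest without replicate 1 of 60 h. The fits of fewer libraries have less residual information by construction; the cause of the other shifts was not tested.

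Of 150 genes named by rule and called, 120 were called under every alternative counted here, and 0 changed sign. The test against 1.5-fold was left out of this count, as were genes named after their values were seen. With 1 library left out, signs turned for clock genes that were not called: Bhlhe41 (-0.0761 to 0.0654), Ciart (-0.0055 to 0.4421), Cry1 (-0.0623 to 0.0381), Nfil3 (-0.0668 to 0.0582), Npas2 (-0.1557 to 0.4828), Nr1d1 (-0.1951 to 0.5255), Per1 (-0.3353 to 0.151) and Per3 (-0.1868 to 0.1171). With the replicate block all 150 kept their call, and Arntl and Bhlhe40 were the only other genes of the 168 to change theirs. Levels under 1 CPM rest on few reads per library, which limits the precision of their changes.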
